A study of Danio rerio with 18 samples.

Results

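The genes described are those of glycolysis and of pyruvate metabolism in the regenerating zebrafish heart, from glucose uptake to the entry of pyruvate into mitochondria. The set was a list of 45 gene symbols, ordered here by pathway step, and its members were matched to the table by symbol. Of these symbols, 38 were found among the 15268 genes of the expression table. The other 7 (slc2a1b, pfkla, pfkpa, pfkpb, pdk1, pdk2a and pdk3a) were not analysed here. An average of at least 3 FPKM in at least 1 time point, the minimum for testing, was reached by 34 of the 38. The 4 others were aldoca, listed at 0 in all 6 libraries, and eno2, pdk3b and pdha1b, each below 1 FPKM in every library.

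The study sequenced mRNA from the newly regenerated heart tissue of TAB zebrafish, a hybrid of the AB and Tubingen lines, after surgical removal of the tip of the ventricle. Tissue was collected on days 0, 6 and 9 after amputation (dpa), with 2 biological replicates per time point and 6 RNA libraries in all, and the 0 dpa tissue served as the control. The age of the fish and the number of hearts in a library are not given in the sources used here, and neither is a batch. The chromatin data of the study, on H3K9ac and H3K9me3, were not used here.

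Glycolysis splits glucose into pyruvate in a chain of enzyme steps, most of which are served by several paralogous genes in zebrafish, and gives a small amount of ATP without oxygen. Pyruvate then has a choice of fates. Lactate dehydrogenase turns it into lactate, which leaves the cell through monocarboxylate carriers, or the mitochondrial pyruvate carrier brings it to the pyruvate dehydrogenase complex, which makes acetyl-CoA for oxidation. Pyruvate dehydrogenase kinases phosphorylate that complex and switch it off. Heart muscle of adult vertebrates makes most of its ATP in mitochondria, and the balance between glycolysis and oxidation in cardiomyocytes is a topic of heart regeneration research.

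Expression was given as FPKM, a fragment count scaled to transcript length and to the mapped fragments of the library, which allows levels of different genes to be compared per length. The summed FPKM of a library ran from 803421 to 1330110, with the highest sum in replicate 1 of 0 dpa. FPKM carry no read counts, so the precision of a value is known only from the 2 replicates. The replicate libraries also differed as a whole: among the 34 tested genes of the set, 31 were higher in replicate 1 than in replicate 2 at 0 dpa (median log2 difference 0.60), 25 at 6 dpa (0.35) and 29 at 9 dpa (0.36), while 66.9, 63.8 and 65.9% of all genes in the fit were higher in replicate 1. The tissue was checked against cardiomyocyte markers, of which 11 of 14 were in the table and all 11 were above 1 FPKM in every library. Their summed level was 102243 and 47560 FPKM at 0 dpa, 51031 and 43538 FPKM at 6 dpa and 72519 and 56376 FPKM at 9 dpa, highest in replicate 1 of 0 dpa, as was the summed level of the glycolysis and pyruvate genes (44564 FPKM there against 22141 FPKM in replicate 2). Replicate 2 of 6 dpa stood apart in some epidermis markers and in the liver marker fabp10a. It had 187 FPKM for krt5, 60.7 for epcam, 38.9 for cldne and 37.7 for fabp10a, where the other 5 libraries reached at most 12.3 FPKM for any of these genes. The other markers of these lists had no such pattern. The epidermis marker krt4 was highest in replicate 2 of 9 dpa (412 FPKM). The liver marker tfa was highest in replicate 1 of 6 dpa (506 FPKM, against 191 in replicate 2). The markers cyt1, fgb, ambp, apobb.1 and cp were below 1 FPKM in every library. In bulk tissue, fewer cells of a type and less RNA per cell cannot be told apart.

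The glycolysis and pyruvate genes were abundant at every time point. Together the 38 genes held 3.35 and 2.42% of the summed FPKM (0 dpa), 3.24 and 3.33% (6 dpa) and 4.13 and 3.00% (9 dpa), and the ranges of the time points overlapped. The gene gapdh alone held between 1.04 and 2.14%. Levels spanned a wide range, from means over the 6 libraries of 3.90 FPKM for eno1b and 4.19 FPKM for pfklb to 16314 FPKM for gapdh.

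**Figure D1:**
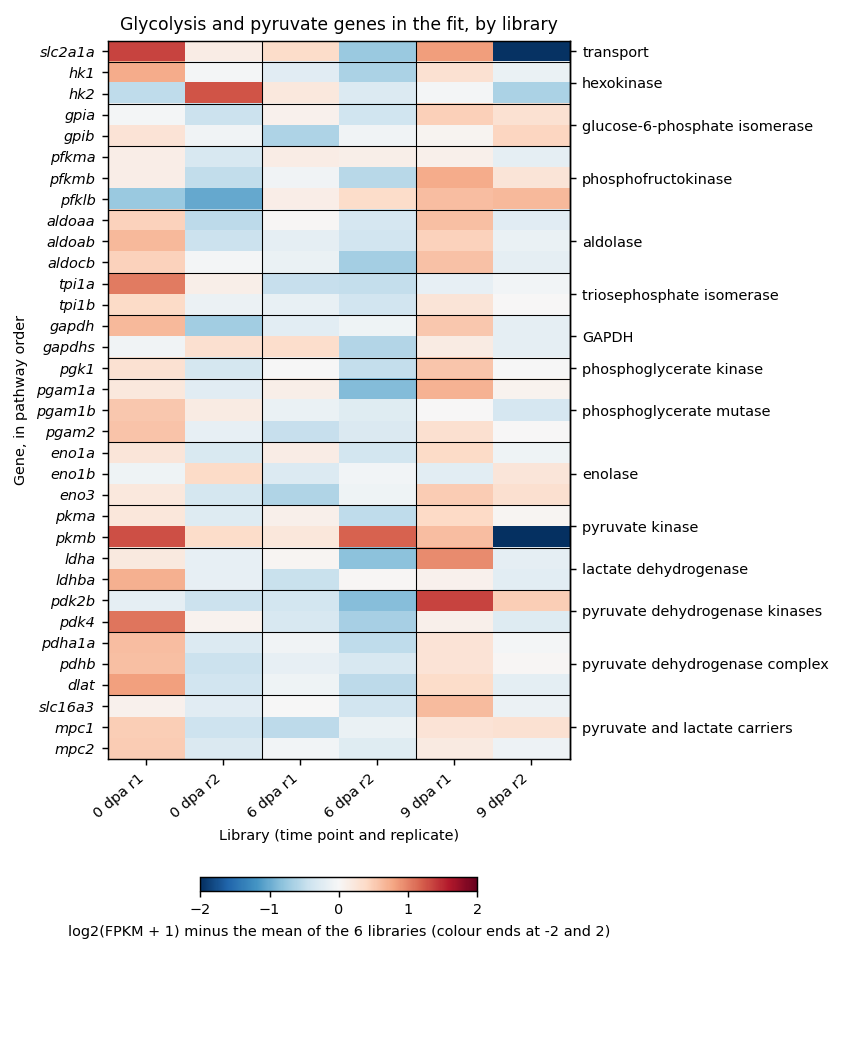
Heat map of the 34 tested glycolysis and pyruvate genes (rows, in pathway order, with the step named at the right) in the 6 libraries (columns, 2 replicates at each of 0, 6 and 9 dpa). Colour gives log2(FPKM + 1) minus the mean of the 6 libraries, red above and blue below, with the colour scale ending at -2 and 2. Most genes are redder in replicate 1 than in replicate 2 at 0 dpa, where 31 of 34 were higher, and pkmb and slc2a1a are lowest in replicate 2 of 9 dpa.

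Differences between time points were tested with limma on log2(FPKM + 1). Calls followed the 3 criteria of the study, which ask for a fold change of at least 1.5, for a mean of 3 FPKM or more in either group, and for P under 0.05 without adjustment. Between 6 and 0 dpa, 3 of the 34 genes were called (8.82%, beside 15.4% of all 9275 genes tested). They were pfklb, which was higher (2.94%, beside 7.86% of all genes), and tpi1a and pdk4, which were lower (5.88%, beside 7.51%). Between 9 and 0 dpa, 2 of 34 were called (5.88%, beside 12.5% of all genes), pfklb and pdk2b, both higher (beside 6.82% of all genes), and 0 were lower (beside 5.72%). Between 9 and 6 dpa only pdk2b was called, as higher (2.94%, beside 3.41% of all genes, of which 1.99% were higher and 1.42% lower). After Benjamini-Hochberg adjustment 0 of the 34 passed in any comparison with limma (beside 0.712, 0.366 and 0.0328% of all genes). At an unadjusted P under 0.05 the set had 3, 2 and 1 genes (beside 15.5, 12.8 and 3.49% of all genes). An exact permutation test of 2 libraries against 2 cannot give a p below 0.333, so it was not used for single genes.

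As deposited, most genes of the set had lower values at 6 dpa than at either other time point. This was weaker or absent with haemoglobin genes removed and under cardiomyocyte marker scaling, as given further on. The median log2 fold change over the 34 genes was -0.35 at 6 dpa against 0 dpa (-0.0028 over all genes tested), 0.055 at 9 dpa against 0 dpa (-0.028 over all genes) and 0.41 at 9 dpa against 6 dpa (-0.011 over all genes). Median-ratio scaling left the first and last of these near their values, at -0.39 (-0.039 over all genes) and 0.43 (0.017 over all genes). In the 6 dpa to 0 dpa comparison 3 of the 34 had a value above 0 (8.82%, beside 49.8% of all genes), and from 0 to 9 dpa it was 19 (55.9%, beside 47.4%). From 6 to 9 dpa 30 of the 34 had a value above 0 (88.2%, beside 48.2% of all genes), and for 15 of them both libraries of 9 dpa lay above both of 6 dpa (44.1%, beside 18.4% of all genes). Only pfkma had both below (2.94%, beside 18.1%). For 8 genes both libraries of 6 dpa lay below both of 0 dpa (23.5%, beside 22.8% of all genes), among them hk1, gpib, aldocb, tpi1b, pgam1b and pgam2, and for pfklb both lay above (2.94%, beside 22.9%). Libraries of 9 dpa lay above both of 0 dpa for 5 genes, eno3, gpia, pdk2b, pfklb and pfkmb (14.7%, beside 20.2%), and below them for pgam1b and tpi1a (5.88%, beside 20.9%). The comparisons share libraries, so their values are not independent of each other.

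The value at 6 dpa against 0 dpa depended on which 0 dpa library was used. Without replicate 1 of 0 dpa the median of the set was 0.00087, with 17 genes above 0 and 17 below. Without replicate 2 of 0 dpa it was -0.62, and 15 of the 34 genes were called, in a fit that called 24.7% of all genes (915 higher and 1385 lower of 9297). Of the 15, 14 were lower: tpi1a, pdk4, gapdh, hk1, aldoab, tpi1b, pgam1b, pgam2, ldhba, mpc1, mpc2, pdha1a, pdhb and dlat. The 9 dpa against 0 dpa median was 0.42 without replicate 1 of 0 dpa and -0.22 without replicate 2. The difference between 9 and 6 dpa does not use the values of these libraries, and its median stayed between 0.23 and 0.61 with any 1 library left out, with at least 26 of 34 genes above 0. Without replicate 2 of 6 dpa, the library high in krt5, epcam, cldne and fabp10a, the median was -0.25 at 6 dpa against 0 dpa and 0.29 at 9 dpa against 6 dpa. Cardiomyocyte markers moved in the same direction: their median log2 fold change was -0.53 at 6 dpa against 0 dpa (1 of 11 genes above 0) and 0.42 at 9 dpa against 6 dpa (11 of 11 above 0). Endothelium markers also had lower values at 6 dpa, with a median of -0.57 against 0 dpa (0 of 5 above 0) and 0.13 at 9 dpa against 6 dpa (4 of 5 above 0). The part of these cell types in the values of the set was not tested. When the libraries were scaled to the cardiomyocyte markers instead, a choice made after the data were seen, the median of the set became 0.12 at 6 dpa against 0 dpa and 0.011 at 9 dpa against 6 dpa, with 25 and 19 of 34 genes above 0. The same scaling moved the median of all genes to 0.45 and -0.38. With haemoglobin genes removed and the libraries rescaled, the median of the set was -0.032 at 6 dpa against 0 dpa (16 genes above 0 and 18 below) and 0.23 at 9 dpa against 6 dpa (27 above and 7 below), and that of all genes 0.32 and -0.18. Scaling moves all genes of a library together and so leaves the gap between the medians of the set and of all genes nearly as it was. At 6 dpa against 0 dpa this gap was -0.35 with all libraries and -0.077 without replicate 1 of 0 dpa.

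**Figure D2:**
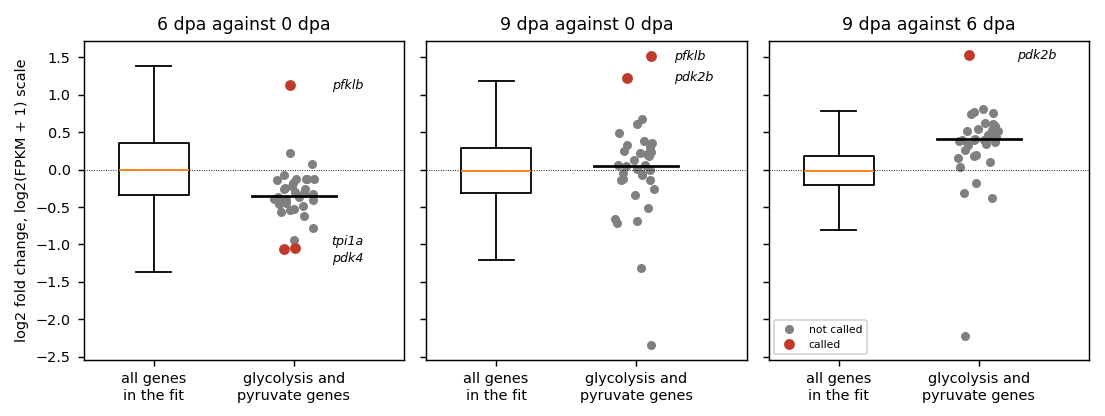
Log2 fold changes on the log2(FPKM + 1) scale at 6 dpa against 0 dpa, 9 dpa against 0 dpa and 9 dpa against 6 dpa. Boxes give the median and quartiles of all genes in the fit, with whiskers to 1.5 times the interquartile range, points are the 34 glycolysis and pyruvate genes (red where called by the 3 criteria) and the black line is their median, at -0.35, 0.055 and 0.41. The points lie mostly below 0 at 6 dpa against 0 dpa and mostly above 0 at 9 dpa against 6 dpa (with scaling to cardiomyocyte markers these medians were 0.12 and 0.011, and with haemoglobin genes removed -0.032 and 0.23), and the called genes pfklb, tpi1a, pdk4 and pdk2b lie at the edges.

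Glucose uptake was represented by slc2a1a, which encodes a glucose transporter of the GLUT1 type. Its level was 34.8 and 14.6 FPKM at 0 dpa, 17.1 and 7.43 FPKM at 6 dpa and 24.1 and 2.57 FPKM at 9 dpa. Replicate 1 was the higher library at each time point, by 9.37 times at 9 dpa, and the time points overlapped. The log2 fold change was -0.94 at 6 dpa against 0 dpa (standard error, SE, 0.86, limma adjusted p = 0.639) and -1.32 at 9 dpa against 0 dpa (adjusted p = 0.578), neither of them called. Without replicate 1 of 9 dpa, slc2a1a was called as lower at 9 dpa against both 0 dpa (-2.73) and 6 dpa (-1.79). Summed levels of 8 neuron markers had the same order within each pair. They were 23.4 and 10.6 FPKM at 0 dpa, 13.9 and 5.85 FPKM at 6 dpa and 19.1 and 7.27 FPKM at 9 dpa. Only 1 of the 8, syt1a, was above 1 FPKM in all libraries, and it held 16.0 and 6.73, 9.02 and 2.65, and 14.0 and 4.20 FPKM of these sums. The marker stmn2b had the opposite order in each pair (0.171 and 0.805, 0.625 and 0.724, and 0.524 and 1.05 FPKM). Replicate 2 was also the higher for elavl4 at 0 dpa and gap43 at 6 dpa. The neuron markers thus did not share 1 pattern. Their part in the slc2a1a values was not tested.

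Hexokinase traps glucose in the cell by phosphorylation. The major gene was hk1, with 155 and 89.7 FPKM at 0 dpa, 78.9 and 59.4 FPKM at 6 dpa and 114 and 84.9 FPKM at 9 dpa. Both libraries of 6 dpa lay below all others. Its change of -0.78 (log2, 6 dpa against 0 dpa, SE 0.36, limma adjusted p = 0.358) was not called, and it was called at -1.17 without replicate 2 of 0 dpa and at -0.82 under median-ratio scaling. The paralog hk2 had 4.60 and 17.9 FPKM at 0 dpa, 8.23 and 5.56 FPKM at 6 dpa and 6.70 and 4.10 FPKM at 9 dpa. Its level in replicate 2 of 0 dpa was 3.89 times that in replicate 1, the opposite of most genes of the set, and hk2 made up 2.88 and 16.6% of the hexokinase FPKM in replicates 1 and 2. Not called with all libraries, hk2 was called lower at 6 dpa (-1.28) and at 9 dpa (-1.59) without replicate 1 of 0 dpa. Of the macrophage and neutrophil markers, 10 of 13 were in the table and all were above 1 FPKM in every library. Their summed level was also highest in replicate 2 of 0 dpa, at 828 FPKM. It was 192 FPKM in replicate 1 of 0 dpa, 489 to 555 at 6 dpa and 231 to 299 at 9 dpa. Not every marker had this pattern. The markers mfap4 (140 FPKM) and mpx (4.61 FPKM) were highest in replicate 1 of 6 dpa, and lyz (134 FPKM) in replicate 2 of 6 dpa. In replicate 2 of 0 dpa these markers had 129, 2.03 and 105 FPKM. Their part in the hk2 values was not tested.

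Glucose-6-phosphate isomerase, the next enzyme, was expressed from both of its genes at similar levels per length. The gene gpib had 357 and 283 FPKM at 0 dpa, 192 and 281 FPKM at 6 dpa and 307 and 397 FPKM at 9 dpa, and the log2 fold change was -0.45 at 6 dpa against 0 dpa (SE 0.33, limma adjusted p = 0.555) and 0.58 at 9 dpa against 6 dpa (adjusted p = 1.00). Its partner gpia had 259 and 198, 281 and 202, and 369 and 328 FPKM in the same order. For gpia both libraries of 9 dpa exceeded the other 4, and the log2 fold change at 9 dpa against 0 dpa was 0.62 (adjusted p = 0.478), not called. It was called at 0.81 without replicate 1 of 0 dpa, at 0.61 under median-ratio scaling and at 0.77 with haemoglobin genes removed.

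Phosphofructokinase commits sugar to glycolysis and is its main point of control. The muscle-type gene pfkmb carried between 89.3 and 95.04% of the phosphofructokinase FPKM, with 178 and 115 FPKM at 0 dpa, 155 and 110 FPKM at 6 dpa and 274 and 194 FPKM at 9 dpa. Both libraries of 9 dpa were above the other 4. It differed by 0.68 on the log2 scale at 9 dpa against 0 dpa (SE 0.36, limma adjusted p = 0.495) and 0.81 at 9 dpa against 6 dpa (95% interval -0.03 to 1.65, adjusted p = 1.00), and neither was called. Of the alternatives, 5 called it as higher in the former comparison and 7 in the latter. Several of the latter, such as the fits without either replicate of 0 dpa, keep the value of 0.81 and change only the spread. The other muscle-type gene, pfkma, stayed between 5.68 and 8.32 FPKM.

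The liver-type gene pfklb changed the most of the 3 phosphofructokinase genes measured. It had 1.84 and 1.32 FPKM at 0 dpa, 4.19 and 5.08 FPKM at 6 dpa and 6.29 and 6.43 FPKM at 9 dpa, so every library of 6 and 9 dpa was above both of 0 dpa. Means rose from 1.58 ± 0.37 FPKM (SD, n = 2) to 4.64 ± 0.63 and 6.36 ± 0.10, a ratio of 2.93 at 6 dpa and 4.02 at 9 dpa. On the log2(FPKM + 1) scale, which understates changes of low genes, the fold changes were 1.13 at 6 dpa (SE 0.30, unadjusted p = 0.00606, limma adjusted p = 0.133, 0.0621 to 0.434 over the alternatives) and 1.52 at 9 dpa (SE 0.30, unadjusted p = 0.00113, adjusted p = 0.112, 0.0535 to 0.579 over the alternatives). Both met the 3 criteria under all 15 alternatives, each library left out in turn included. At 0 dpa pfklb was below the minimum of 3 FPKM, so it entered the test through its levels at 6 and 9 dpa.

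The share of pfklb in the phosphofructokinase FPKM does not depend on how libraries are scaled. It was 0.978 and 1.08% (0 dpa), 2.49 and 4.13% (6 dpa) and 2.18 and 3.11% (9 dpa). The gene thus stayed a minor part of the total while its share was higher in each library of 6 and 9 dpa. Since pfklb had been called as higher in these same libraries, its share adds no independent support. Red blood cell markers other than haemoglobin (9 of 11 in the table, all above 1 FPKM in every library) summed to 2339 and 1214 FPKM at 0 dpa and 3107 to 5419 afterwards. Against 0 dpa, 7 of 9 were called higher at 6 dpa and 5 of 9 at 9 dpa (beside 7.86 and 6.82% of all genes). Not every red cell gene had this pattern, since nt5c2l1 had 605 and 246 FPKM at 0 dpa and 184 to 273 FPKM afterwards. Haemoglobin itself (12 genes) was lowest at 6 dpa, with a share of 2.71% in both libraries, against 8.82 and 7.77% (0 dpa) and 10.3 and 9.12% (9 dpa) of all FPKM. Markers of epicardium and fibroblasts (8 of 8, all above 1 FPKM in every library) summed to 464 and 517 FPKM at 0 dpa and 1125 to 2268 afterwards. At 6 and 9 dpa against 0 dpa, 6 and 5 of 8 were called higher (beside 7.86 and 6.82% of all genes). The epicardium marker aldh1a2 did not have this pattern, with 79.3 and 145 FPKM at 0 dpa and 75.2 to 127 FPKM afterwards. The part of either cell type in the pfklb values was not tested.

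**Figure D3:**
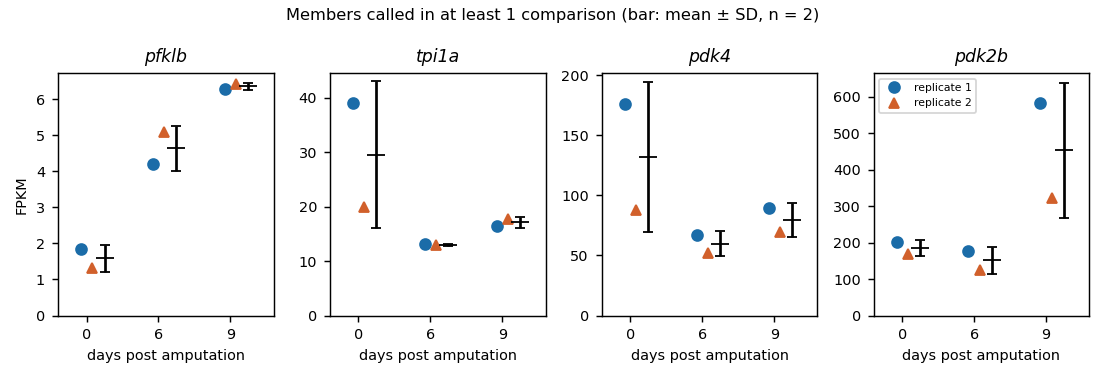
FPKM of the 4 called genes (pfklb, tpi1a, pdk4 and pdk2b, each with its own axis from 0) against days post amputation. Circles are replicate 1, triangles replicate 2, and the bar to the right of each pair is the mean ± SD (n = 2). Both libraries of 6 and 9 dpa lie above 0 dpa for pfklb, at 4.19 to 6.43 against 1.32 and 1.84 FPKM, and both libraries of 9 dpa lie above all others for pdk2b.

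Aldolase cleaves the phosphorylated sugar into a pair of three-carbon molecules. The gene aldoaa was the second most abundant of the set, with 4102 and 2076 FPKM at 0 dpa, 3015 and 2354 FPKM at 6 dpa and 4526 and 2539 FPKM at 9 dpa. Within each time point replicate 1 was the higher, and the time points overlapped, and the log2 fold change was -0.13 at 6 dpa (SE 0.42, limma adjusted p = 0.906) and 0.22 at 9 dpa (adjusted p = 0.881) against 0 dpa. The paralogs aldoab (847 to 1777 FPKM) and aldocb (173 to 416 FPKM) followed at lower levels. Aldoaa made up 65.0 to 70.5% of the aldolase FPKM in every library, and the other paralogs the rest.

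Triosephosphate isomerase interconverts the products of aldolase, and its minor gene was called. The gene tpi1a had 39.0 and 19.9 FPKM at 0 dpa, 13.05 and 12.9 FPKM at 6 dpa and 16.4 and 17.8 FPKM at 9 dpa. All 4 libraries of 6 and 9 dpa were below both of 0 dpa, and means fell from 29.5 ± 13.5 FPKM (SD, n = 2) to 12.96 ± 0.12 at 6 dpa, 2.27 times lower. The log2 fold change at 6 dpa was -1.05 (SE 0.33, unadjusted p = 0.0139, limma adjusted p = 0.192, 0.0433 to 0.539 over the alternatives). The call was lost without replicate 1 of 0 dpa (-0.58), without replicate 1 of 6 dpa (-1.06), without replicate 2 of 6 dpa (-1.04) and under cardiomyocyte marker scaling (-0.58). It was -0.68 at 9 dpa (adjusted p = 0.451), not called, and called at -1.15 without replicate 2 of 0 dpa and at -0.69 under median-ratio scaling. The major gene tpi1b had 1085 and 770 FPKM at 0 dpa, 752 and 637 FPKM at 6 dpa and 1002 and 842 FPKM at 9 dpa, and the log2 fold change was -0.40 at 6 dpa (SE 0.31, adjusted p = 0.574) and 0.0069 at 9 dpa. The share of tpi1a in the FPKM of both genes was 3.47 and 2.53% (0 dpa), 1.71 and 1.98% (6 dpa) and 1.61 and 2.07% (9 dpa), lower in all 4 later libraries. It comes from the same libraries as the call of tpi1a and adds no independent support.

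Glyceraldehyde-3-phosphate dehydrogenase, which makes the NADH of glycolysis, came mostly from gapdh, ranked 2 to 9 among all genes of a library. Its level was 24177 and 9537 FPKM at 0 dpa, 13417 and 14521 FPKM at 6 dpa and 22595 and 13640 FPKM at 9 dpa. The 0 dpa replicates differed by 2.54 times and enclosed both libraries of 6 dpa and of 9 dpa. It differed by -0.12 on the log2 scale at 6 dpa against 0 dpa (SE 0.45, 95% interval -1.17 to 0.92, limma adjusted p = 0.918) and 0.21 at 9 dpa (adjusted p = 0.892). Without replicate 2 of 0 dpa the former value was -0.79 and called as lower, and without replicate 1 of 0 dpa the latter was 0.88 and called as higher. This gene is a common reference in expression assays. The paralog gapdhs, whose mammalian counterpart is the form found in sperm, had 419 to 805 FPKM and was 2.43 to 7.58% of the step.

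Phosphoglycerate kinase, the step that first returns ATP, has the single gene pgk1 in the set. It had 769 and 490 FPKM at 0 dpa, 620 and 447 FPKM at 6 dpa and 918 and 620 FPKM at 9 dpa, with overlapping groups and log2 fold changes of -0.22 at 6 dpa (SE 0.37, limma adjusted p = 0.806) and 0.30 at 9 dpa (adjusted p = 0.795). Of the phosphoglycerate mutases, pgam2, the muscle form in mammals, was the highest with 670 and 405 FPKM at 0 dpa, 330 and 372 FPKM at 6 dpa and 564 and 456 FPKM at 9 dpa. Both libraries of 6 dpa were below the other 4, and the log2 fold change at 6 dpa against 0 dpa was -0.57 (SE 0.34, adjusted p = 0.466). The paralog pgam1a (133 to 392 FPKM) had overlapping groups, and it was called higher at 9 dpa against 6 dpa without replicate 1 of 6 dpa (1.24). The least abundant mutase, pgam1b, had 55.6 and 42.4 FPKM at 0 dpa and 29.8 to 38.2 in the 4 later libraries, and it was not called in either comparison with 0 dpa (log2 fold change -0.54 at 6 dpa and -0.51 at 9 dpa).

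Enolase was led by eno3, the muscle form in mammals. It had 2228 and 1502 FPKM at 0 dpa, 1274 and 1819 FPKM at 6 dpa and 2735 and 2400 FPKM at 9 dpa. Both libraries of 9 dpa exceeded the other 4. The log2 fold change at 9 dpa against 6 dpa was 0.75 (SE 0.33, 95% interval -0.01 to 1.51, unadjusted p = 0.0518, limma adjusted p = 1.00), not called, and it was 0.49 against 0 dpa (adjusted p = 0.592). The value of 0.75 was called in the fits without either replicate of 0 dpa and in the fit of the compared groups only. These fits keep the value and change only the spread. Under median-ratio scaling it was 0.78 and called. Without replicate 1 of 0 dpa the 9 dpa against 0 dpa value was 0.77 and called as higher, as was 0.64 with haemoglobin genes removed. The widely expressed form eno1a had 498 to 836 FPKM and overlapping groups, and eno1b stayed between 3.02 and 5.28 FPKM. The form known from mammalian neurons, eno2, was at 0.348 FPKM or less and listed at 0 in 3 libraries. Skeletal muscle markers, all 15 in the table but 4 of them above 1 FPKM in every library, summed to 3665 and 1326 FPKM at 0 dpa, 2540 and 2102 FPKM at 6 dpa and 3207 and 2423 FPKM at 9 dpa, and ckma alone held 1308 to 3606 FPKM of these sums. The 4 of 6 tested genes called higher at 6 dpa against 0 dpa (beside 7.86% of all genes) had another pattern. They were highest in replicate 2 of 6 dpa, with 34.2 FPKM for mylpfa, 32.3 for pvalb1, 32.0 for pvalb2 and 8.53 for tnnt3b. The 0 dpa averages of mylpfa (2.49 and 0.714 FPKM), pvalb2 (3.79 and 2.15) and tnnt3b (1.21 and 0.168) were below the minimum of 3 FPKM. These genes entered that test only through their levels at 6 dpa, so their calls are not independent of the filter. The part of skeletal muscle in the values of eno3, pgam2 and pfkmb was not tested.

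Pyruvate kinase makes pyruvate and ATP in the last step of glycolysis. The gene pkma had 776 and 555 FPKM at 0 dpa, 714 and 468 FPKM at 6 dpa and 878 and 684 FPKM at 9 dpa, with overlapping groups and log2 fold changes of -0.18 at 6 dpa (SE 0.35, limma adjusted p = 0.830) and 0.24 at 9 dpa (adjusted p = 0.829) against 0 dpa. The paralog pkmb had 67.8 and 35.4 FPKM at 0 dpa, 32.0 and 62.9 FPKM at 6 dpa and 42.3 and 1.23 FPKM at 9 dpa. Replicate 1 of 9 dpa was 34.4 times replicate 2, the widest gap between replicates in the set, and the share of pkmb in pyruvate kinase FPKM was 4.60% in the former and 0.179% in the latter. The largest negative log2 fold change of the set at 9 dpa against 0 dpa, -2.35 for pkmb (SE 1.2, 95% interval -5.06 to 0.37, adjusted p = 0.462), was not called. Without replicate 1 of 9 dpa, which leaves the low library alone, pkmb was called lower at 9 dpa against 0 dpa (-4.49) and 6 dpa (-4.36). With all libraries, it was called lower at 9 dpa against 6 dpa under cardiomyocyte marker scaling (-2.62).

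Lactate dehydrogenase consists of subunits that in mammals are known as the heart form (Ldhb) and the muscle form (Ldha). The gene ldhba was the more abundant in every library, with 2676 and 1469 FPKM at 0 dpa, 1197 and 1663 FPKM at 6 dpa and 1735 and 1422 FPKM at 9 dpa. Groups overlapped, with log2 fold changes of -0.49 (6 dpa against 0 dpa, SE 0.37, limma adjusted p = 0.564) and -0.34 (9 dpa against 0 dpa, adjusted p = 0.768). Without replicate 2 of 0 dpa these were -0.92 and -0.77, both called. The gene ldha had 655 and 509 FPKM at 0 dpa, 586 and 325 FPKM at 6 dpa and 1098 and 503 FPKM at 9 dpa. The share of ldha in lactate dehydrogenase FPKM was 19.7 and 25.7% (0 dpa), 32.9 and 16.3% (6 dpa) and 38.8 and 26.1% (9 dpa). Both shares of 9 dpa were above those of 0 dpa, but the 6 dpa replicates lay on either side of them. Called in no comparison with all libraries, ldha was called higher at 9 dpa against 6 dpa without replicate 2 of 9 dpa (1.33).

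Carriers of lactate and pyruvate showed no call in the fit of all 6 libraries. The gene slc16a3, which encodes the lactate exporter MCT4, had 101 to 206 FPKM, and mpc2, a subunit of the mitochondrial pyruvate carrier, had 149 to 261 FPKM. The other subunit, mpc1, was the highest of the carriers, with 375 and 201 FPKM at 0 dpa, 185 and 243 FPKM at 6 dpa and 325 and 331 FPKM at 9 dpa. Both libraries of 9 dpa lay above both of 6 dpa, with a log2 fold change of 0.62 (SE 0.37, limma adjusted p = 1.00), while 9 dpa lay inside the range of the 0 dpa replicates. That value was called without either replicate of 0 dpa and in the fit of the compared groups only, which keep the value and change only the spread. Against 0 dpa, mpc1 was called lower at 6 dpa without replicate 2 of 0 dpa (-0.82) and higher at 9 dpa without replicate 1 of 0 dpa (0.70).

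The pyruvate dehydrogenase complex was expressed in nearly constant proportions. The gene of the main E1 alpha subunit, pdha1a, had 548 and 294 FPKM at 0 dpa, 337 and 250 FPKM at 6 dpa and 430 and 344 FPKM at 9 dpa, and the log2 fold change was -0.47 at 6 dpa (SE 0.38, limma adjusted p = 0.598) and -0.062 at 9 dpa (adjusted p = 0.967) against 0 dpa. In the 6 libraries pdha1a held 40.3 to 44.99% of the FPKM of the complex genes measured, the E1 beta gene pdhb 40.5 to 45.9% and the E2 gene dlat 13.2 to 16.8%. All 3 were highest in replicate 1 of 0 dpa, and none was called in the fit of all 6 libraries.

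Of the kinases that inhibit this complex, pdk2b was called higher at 9 dpa and pdk4 lower at 6 dpa. The gene pdk2b had 201 and 169 FPKM at 0 dpa, 178 and 126 FPKM at 6 dpa and 584 and 322 FPKM at 9 dpa. Both libraries of 9 dpa exceeded the other 4, whereas 0 and 6 dpa overlapped. Mean FPKM (± SD, n = 2) were 185 ± 22.2 (0 dpa), 152 ± 36.7 (6 dpa) and 453 ± 185 (9 dpa), which gives a ratio of 2.45 between 9 and 0 dpa and 2.99 between 9 and 6 dpa. On the log2 scale pdk2b differed by 1.23 at 9 dpa against 0 dpa (SE 0.38, unadjusted p = 0.0121, limma adjusted p = 0.257, 0.125 to 0.715 over the alternatives) and 1.53 at 9 dpa against 6 dpa (SE 0.38, unadjusted p = 0.00391, adjusted p = 1.00, 0.493 to 1 over the alternatives). The latter met the 3 criteria under all 15 alternatives. The former was lost only without replicate 1 of 9 dpa, where it was 0.80. Under scaling to the cardiomyocyte markers both calls of pdk2b were kept.

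The other kinase, pdk4, which in mammals is known for its induction by fasting and fatty acids, had 176 and 88.1 FPKM at 0 dpa, 67.0 and 52.3 FPKM at 6 dpa and 89.4 and 69.5 FPKM at 9 dpa. Both libraries of 6 dpa were below the other 4. Means fell from 132 ± 62.3 FPKM (SD, n = 2) at 0 dpa to 59.6 ± 10.4 at 6 dpa, 2.22 times lower, with a log2 fold change of -1.06 (SE 0.39, unadjusted p = 0.0262, limma adjusted p = 0.249, 0.0588 to 0.640 over the alternatives). The call was lost without replicate 1 of 0 dpa (-0.57), without replicate 1 of 6 dpa (-1.24), without replicate 2 of 6 dpa (-0.89) and under cardiomyocyte marker scaling (-0.57). At 9 dpa it was -0.65 (adjusted p = 0.540), not called, and called at -1.15 without replicate 2 of 0 dpa.

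The ratio of pdk2b to pdk4 within a library is independent of scaling. It was 1.14 and 1.92 (0 dpa), 2.65 and 2.41 (6 dpa) and 6.53 and 4.63 (9 dpa). The time points did not overlap in any pair, and the ratio was higher at each later time point. Both genes had been called in these same libraries, pdk2b higher and pdk4 lower, so the ratio adds no independent support. The share of pdk2b in the FPKM of the pyruvate dehydrogenase kinases measured was 53.3 and 65.8% (0 dpa), 72.6 and 70.5% (6 dpa) and 86.7 and 82.2% (9 dpa). Against its target, the ratio of pdk2b to pdha1a was 0.367 and 0.576 (0 dpa), 0.527 and 0.502 (6 dpa) and 1.36 and 0.936 (9 dpa), higher at 9 dpa than in the other 4 libraries. These ratios were not tested, since 2 libraries against 2 allow no exact p below 0.333. Shares in other steps also lacked overlap between 9 and 0 dpa, among them those of gpia, aldoaa, pgam1a, eno3, pkma and ldha. The share of pfkma in its step did not overlap between any time points, and it was lowest at 9 dpa. A share without overlap is thus not particular to pdk2b, pfklb or tpi1a. How reads that match several paralogs were divided between them is not given in the sources used here, so levels of close paralogs are uncertain to that extent.

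**Figure D4:**
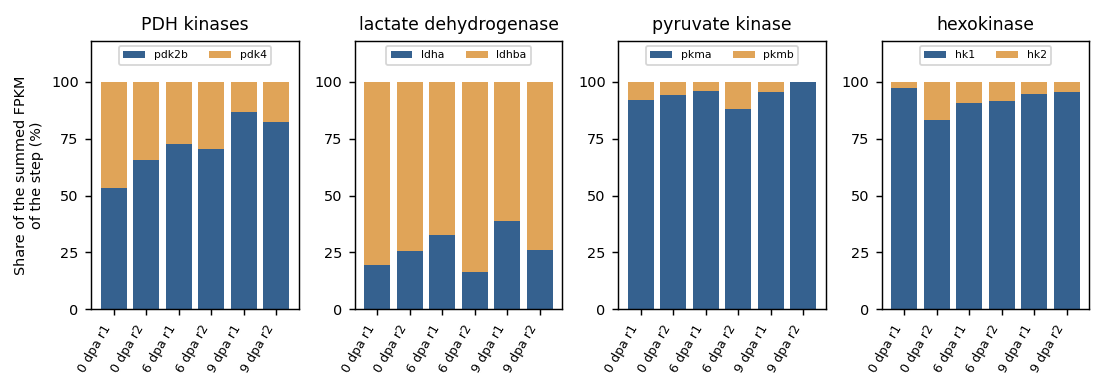
Stacked bars of the share (%) of each gene in the summed FPKM of its step in the 6 libraries, for the pyruvate dehydrogenase kinases, lactate dehydrogenase, pyruvate kinase and hexokinase. The pdk2b share runs from 53.3 and 65.8% at 0 dpa to 86.7 and 82.2% at 9 dpa with no overlap between time points, while pkmb (0.179% in replicate 2 of 9 dpa) and hk2 (16.6% in replicate 2 of 0 dpa) each stand apart in 1 library.

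Other genes of the same pathways were read from further lists. Beside the counts of calls below, 7.86% of all genes were called higher and 7.51% lower at 6 dpa against 0 dpa, 6.82 and 5.72% at 9 dpa against 0 dpa, and 1.99 and 1.42% at 9 dpa against 6 dpa. Of 17 other glycolysis genes in the table, 9 were tested at 6 dpa against 0 dpa. There pfkfb4a, an enzyme that sets the level of the phosphofructokinase activator, was called lower (log2 fold change -1.15). That call was lost under cardiomyocyte marker scaling and without replicate 2 of 6 dpa. Between 9 and 0 dpa 2 genes were called lower among 9 tested. They were bpgm (-1.03, limma adjusted p = 0.354), which makes the red cell metabolite bisphosphoglycerate, and pfkfb3 (-1.10, unadjusted p = 0.0483, adjusted p = 0.385). In that comparison 1 gene of the list was called lower under median-ratio or cardiomyocyte marker scaling and with haemoglobin genes removed. Lower calls over all genes were 605 of 9019, 228 of 8831 and 358 of 8932 in these settings. No gene was called among 8 tested at 9 dpa against 6 dpa. The gene pfkfb3 had 7.85 and 20.5 FPKM in the 0 dpa replicates and 3.80 to 8.13 later, and like hk2 it was highest in replicate 2 of 0 dpa.

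Among 16 other pyruvate and lactate genes in the table, the monocarboxylate carrier slc16a1a stood out. It had 3.98 and 2.99 FPKM at 0 dpa, 11.8 and 7.04 FPKM at 6 dpa and 17.2 and 10.2 FPKM at 9 dpa, and every later library was above both of 0 dpa. Against 0 dpa it differed by 1.19 on the log2 scale at 6 dpa (SE 0.34, limma adjusted p = 0.163) and 1.68 at 9 dpa (adjusted p = 0.125). The paralog slc16a1b, which was more abundant at 24.6 to 62.9 FPKM, was called lower at 6 dpa (-0.83), and pcxa, a pyruvate carboxylase that feeds the citric acid cycle, was called higher there (0.87). The lower call was lost with haemoglobin genes removed, under cardiomyocyte marker scaling and in the fit of the compared groups only. It was also lost without replicate 2 of 6 dpa or without either replicate of 9 dpa. Fewer genes were called higher without either replicate of 6 dpa. The genes slc16a1a, slc16a1b and pcxa were the 3 calls among 12 genes tested at 6 dpa. Only slc16a1a was called among 13 at 9 dpa against 0 dpa, and 0 of 13 were called at 9 dpa against 6 dpa in the limma fit.

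Of the genes of gluconeogenesis and glycogen, 16 were in the table and 12 were tested against 0 dpa. The glycogen phosphorylase gene pygl had 25.6 and 5.78 FPKM at 0 dpa and 0.769 to 1.38 FPKM in the 4 later libraries, and was called lower at 6 dpa (log2 fold change -2.76, limma adjusted p = 0.0931) and at 9 dpa (-2.71, adjusted p = 0.151). At 6 and 9 dpa pygl was below the minimum of 3 FPKM. It entered both tests only through its levels at 0 dpa, so its calls are not independent of the filter. The phosphorylase kinase subunits phkg1a (-1.47) and phkg1b (-1.07) were called lower at 6 dpa and again at 9 dpa. The counts at 6 dpa against 0 dpa, 0 higher and 3 lower, became 3 higher and 3 lower with haemoglobin genes removed and 3 higher and 2 lower under cardiomyocyte marker scaling. Over all genes these settings called 1750 higher and 343 lower of 9417, and 1410 and 180 of 9523. The glycogen synthase gene gys1 was called higher at 9 dpa (1.05), with 41.0 and 28.7 FPKM at 0 dpa against 86.6 and 59.9 FPKM at 9 dpa. The counts at 9 dpa against 0 dpa were 1 higher and 3 lower. They became 3 higher and 2 lower with haemoglobin genes removed or with a replicate block, and 2 higher and 2 lower under cardiomyocyte marker scaling. Over all genes these settings called 964 higher and 358 lower of 8932, 629 and 585 of 9015, and 415 and 228 of 8831. Fewer genes of the list were called lower with several of the libraries left out. The gys1 call was lost without replicate 2 of 0 dpa or replicate 1 of 9 dpa. No gene of this list was called among the 11 tested at 9 dpa against 6 dpa in the limma fit of all libraries, and at most 2, both higher, under the alternatives. The 2 were called under median-ratio scaling (282 of 9133 higher over all genes). Of the 6 tested genes of the pentose phosphate pathway 0 were called in the limma fit of all libraries. With haemoglobin genes removed 1 was called higher at 6 dpa against 0 dpa (1750 of 9417 over all genes).

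Hypoxia-inducible factor (HIF) is a transcription factor stabilised at low oxygen, and genes of glycolysis are among its known targets. Of 15 genes of the HIF pathway tested, 6 were called lower and 1 higher at 6 dpa against 0 dpa, 2 lower and 2 higher at 9 dpa against 0 dpa, and 5 higher with none lower at 9 dpa against 6 dpa. The median log2 fold changes of the list were -0.48, -0.042 and 0.44 (-0.0028, -0.028 and -0.011 over all genes). At 6 dpa against 0 dpa and 9 dpa against 6 dpa they became -0.15 and 0.26 with haemoglobin genes removed, and 0.00098 and 0.054 under cardiomyocyte marker scaling. The gene ankrd37, a HIF target, had 10.0 and 14.7 FPKM at 0 dpa, 2.77 and 1.93 FPKM at 6 dpa and 4.94 and 4.51 FPKM at 9 dpa, with a log2 fold change of -1.99 at 6 dpa against 0 dpa (SE 0.29, limma adjusted p = 0.0351). At 6 dpa ankrd37 was below the minimum of 3 FPKM. It entered this comparison only through its levels at 0 dpa, so its call is not independent of the filter. The oxygen sensor gene egln3 (-1.96, limma adjusted p = 0.141) was called lower and the mitophagy gene bnip3 (1.72, adjusted p = 0.170) higher in that comparison. From 6 to 9 dpa the largest values were those of the stress gene ddit4 (1.80), egln3 (1.43) and the angiogenic factor vegfaa (1.199), all called. None of the list passed Benjamini-Hochberg adjustment in that comparison. At 6 dpa against 0 dpa the counts were 3 higher and 2 lower under cardiomyocyte marker scaling (1410 and 180 of 9523 over all genes). With haemoglobin genes removed they were 3 higher and 4 lower (1750 and 343 of 9417 over all genes). The median of the list in that comparison was -0.87 without replicate 2 of 0 dpa and -0.25 without replicate 1. The 5 higher calls at 9 dpa against 6 dpa became 0 under cardiomyocyte marker scaling and 3 with haemoglobin genes removed. Higher calls over all genes were 182 of 9157 as deposited, and 26 of 9435 and 96 of 9363 in these settings. Fewer genes of the list were called at 9 dpa against 6 dpa when any 1 library of 6 or 9 dpa was left out. The median of the list there was 0.37 without replicate 1 of 9 dpa and 0.55 without replicate 2 of 9 dpa. It was 0.37 without replicate 2 of 6 dpa and 0.63 without replicate 1 of 6 dpa.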

How the data were processed

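RNA from 6 libraries (0, 6 and 9 dpa, 2 replicates each) was analysed. The authors aligned reads to danRer10 with STAR and made the deposited FPKM values with Cufflinks. Versions of STAR and Cufflinks, gene annotation and any scaling between libraries are not given in the sources used here. The values were used as deposited. They hold no counts, so depth per value is unknown, and limma 3.58.1 (R 4.3.3) took the place of the count-based test of the study. The fit used log2(FPKM + 1), time point as the only term and a trend over expression, with 3 residual and 4.66 (median) prior degrees of freedom, on the 9363 genes whose mean reached 3 FPKM at some time point. P-values measure the spread between replicates only.

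Members and gene lists were chosen with earlier results of these data known. Full values are given for each called member and for the member with the highest mean of each step, and of the other lists the called genes with the largest changes (up to 3 per comparison) are named. Other values were picked after they were seen. Of the 38 symbols, 36 were current RefSeq symbols and 2 synonyms (slc16a3 and mpc2). Median-ratio, haemoglobin-removed and cardiomyocyte marker scaling, other filters and pseudocounts, fits without a trend, with a replicate term or of the compared groups only, and each library left out were tried. Wherever haemoglobin genes were removed, the libraries were also rescaled to the same summed FPKM. No sequences are shown, and the result of 1 gene of the other glycolysis genes is not reported here. Figures were drawn with matplotlib 3.10.9.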

Additional observations from a re-analysis of the deposited data

How the results depend on the processing

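FPKM carry no counts, so depth sets no interval here, and with 2 replicates per time point the spread limits every value. No member changed direction under the 15 alternatives in a comparison where the main fit called it. Elsewhere such members could do so, as pdk2b at 6 dpa against 0 dpa ran from -0.55 to 0.19. The members called at 6 dpa against 0 dpa numbered 3 (all genes 15.4%), and 5 with a replicate block (16.5%), 1 under cardiomyocyte marker scaling (chosen after seeing the data, 16.7%) and 1 to 15 with a library left out (10.6 to 24.7%). At 9 dpa against 0 dpa the 2 called (12.5% of all genes) became 5 under median-ratio scaling (13.8%), 5 with haemoglobin genes removed (14.8%), 6 with the replicate block (13.5%) and 2 to 8 with a library left out (6.46 to 20.6%). At 9 dpa against 6 dpa the 1 called (3.41% of all genes) became 2 without the FPKM filter (3.10%), 3 under median-ratio scaling (4.16%), 2 with haemoglobin genes removed (3.86%), 4 in fits of the compared groups only (6.69%), 5 with the replicate block (3.85%), 2 under cardiomyocyte marker scaling (3.06%) and 1 to 4 with a library left out (1.83 to 6.88%). Under cardiomyocyte marker scaling the calls at 9 dpa against 6 dpa were pdk2b as higher and pkmb as lower. The replicate block added hk1 and aldocb as lower at 6 dpa against 0 dpa, gpia and pfkmb as higher and pdk4 and slc2a1a as lower at 9 dpa against 0 dpa, and aldocb, ldha, pfkmb and pgam1a as higher at 9 dpa against 6 dpa. The median of the members under cardiomyocyte marker scaling was 0.12 at 6 dpa against 0 dpa and 0.011 at 9 dpa against 6 dpa. With a library left out it lay between -0.62 and 0.00087 at 6 dpa against 0 dpa, -0.22 and 0.42 at 9 dpa against 0 dpa, and 0.23 and 0.61 at 9 dpa against 6 dpa. In those fits the lone library of a group is assumed to vary like the other groups. Removing haemoglobin genes and rescaling every library to the same summed FPKM moved the median of all genes at 6 dpa against 0 dpa to 0.32. That of the members became -0.032, and of all genes 2093 were called (1750 higher and 343 lower) against 1426 (729 and 697). The deposited sums were 1330110 and 914654 FPKM at 0 dpa and 842513 and 803421 FPKM at 6 dpa. Haemoglobin held 8.82 and 7.77% of them at 0 dpa and 2.71% in both libraries of 6 dpa. Scaling these sums to the same value raises 6 dpa against 0 dpa, and taking haemoglobin out first makes that rise smaller. No fit made either step alone, so the size of each part was not measured. At 9 dpa against 6 dpa the same setting turned 182 higher and 130 lower calls into 96 and 265. Cardiomyocyte marker scaling gave 1410 higher and 180 lower, and 26 and 263, in these comparisons. Deviations of same-numbered libraries from their group means correlated by -0.085, 0.090 and 0.0052 over genes. This correlation cannot see an offset shared by all genes of a library. Replicate 1 was the higher for 66.9, 63.8 and 65.9% of all genes in the fit at 0, 6 and 9 dpa. Whether the replicate numbers pair the samples was therefore not settled, and the main fit did not use them as pairs. The causes of these shifts were not tested.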
